A study of Bos taurus with 10 samples.

Results

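The 84 genes described here encode the main structural proteins of the extracellular matrix and the receptors that bind them. They were taken from the table of normalized read counts by gene symbol, as every collagen chain, laminin chain, integrin alpha or beta chain, fibronectin (*FN1*), the nidogens *NID1* and *NID2* and perlecan (*HSPG2*), with a mean of at least 1 over the 10 embryos. All 84 symbols of this kind passed that minimum, out of 20056 genes that did so and 20112 genes in the table. Among those nearest to it were *ITGA4* and *COL5A2*, with means of 1.57 and 2.16. The set holds 43 collagen chains (11 fibrillar, 6 of collagen IV and 26 others), 11 laminin chains, 18 integrin alpha chains, 8 integrin beta chains and the 4 remaining genes.

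A basement membrane is a thin sheet of matrix under epithelial cells. Laminin trimers, each of an alpha, a beta and a gamma chain, and collagen IV form its networks, which nidogens and perlecan link. Fibrillar collagens build the fibres of connective tissue, fibronectin forms fibrils on cell surfaces, and integrins are pairs of an alpha and a beta chain that connect these proteins to the cytoskeleton. In the mammalian blastocyst, such proteins are laid down between the cell layers, and the primitive endoderm is a main source of them.

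The samples were single bovine early blastocysts from in vitro fertilization, labelled as day 7.0 (the text of the study gives a slightly later time), 5 WT and 5 *SOX2* KO. All 10 embryos were injected with mRNA for BE3, a cytosine base editor that converts C to T at a chosen site. WT embryos (nc1 to nc5, named as in the table) received no sgRNA, and *SOX2* KO embryos (ko1 to ko5) also received sgRNAs designed to install early stop codons in the *SOX2* gene, which encodes a transcription factor of pluripotent cells. Editing after injection can leave an embryo mosaic. The study reports genotyping each sequenced blastocyst with part of its cDNA library, and those genotypes were not analysed here. Neither the parents nor the collection batches of the embryos are given, so the p-values measure the spread between these embryos.

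Each WT embryo had between 2223670 and 5134855 recovered reads, and each *SOX2* KO embryo between 2578284 and 4337342. *SOX2* mRNA itself stood between 56.5 and 93.4 normalized reads in WT and between 26.4 and 82.1 in *SOX2* KO embryos, and was not called (limma, adjusted p = 0.167). A stop codon need not lower the read count, so these values do not check the edit. Of all recovered reads of an embryo, 26.4% to 37.0% in WT against 32.5% to 45.0% in *SOX2* KO came from the ribosomal RNA gene *RN18S1*. Between 15919 and 18092 genes had a read in WT embryos, and between 17987 and 19813 in *SOX2* KO embryos.

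Normalized read counts below are reads divided by the size factor of the embryo. Fold changes are on the log2(normalized read count + 1) scale, *SOX2* KO minus WT, with the standard error (SE), and understate the change of genes with few reads. A gene was called when limma gave an adjusted p of at most 0.05 and the fold change was at least 2 in either direction. By this rule 29 of the 84 genes rose in *SOX2* KO embryos, where 8.93% of all tested genes rose. *FN1* and *NID1* fell, 2 of 84, where 1.16% of all tested genes fell. The other 53 were not called. The 29 that rose were 20 collagen chains, 3 laminin chains, 5 integrin chains and *HSPG2*. The median fold change of the 84 genes was 1.22 on the log2 scale, beside 0.25 over all tested genes.

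*FN1*, the fibronectin gene, was the gene of the set with the most reads and fell in *SOX2* KO embryos. WT embryos held 11160, 14623, 9831, 7708 and 11202 normalized reads, and *SOX2* KO embryos 3143, 3490, 5007, 4621 and 5856. Every *SOX2* KO embryo was thus below every WT embryo. The mean was 10905 ± 2517 in WT against 4424 ± 1112 in *SOX2* KO (SD, n = 5 each), 2.47-fold lower. The log2 fold change was -1.31 with an SE of 0.23 (limma, adjusted p = 0.00132). *FN1* and *NID1* were the 2 of 84 members without overlap in this direction, beside 2.76% of all tested genes. As each embryo was sequenced whole, fewer cells of a type and less RNA per cell cannot be told apart here.

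This fall also changed the make-up of the set. *FN1* gave 72.5% to 80.9% of the normalized reads of the 84 genes in WT embryos and 36.8% to 55.0% in *SOX2* KO embryos, with no correction for gene length. Of all reads of an embryo, *FN1* took 0.219% to 0.443% in WT against 0.0965% to 0.145% in *SOX2* KO. With *RN18S1* left out of the total the shares were 0.321% to 0.616% and 0.153% to 0.264%, which again did not overlap. The other 83 genes together rose from 2919 to 3673 normalized reads in WT to 3782 to 5415 in *SOX2* KO embryos, a sum for which no test was run.

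*NID1* and *NID2* encode the nidogens, which bridge laminin and collagen IV, and they differed in *SOX2* KO embryos. *NID1* was at 33.6, 303, 103, 97.1 and 140 normalized reads in WT embryos, and at 8.91, 6.60, 18.6, 1.64 and 13.8 in *SOX2* KO embryos. The groups did not overlap, although WT embryos differed widely among themselves. *NID1* was 13.6-fold lower in *SOX2* KO embryos by the means, 135 ± 101 against 9.92 ± 6.54 (SD, n = 5 each), with a log2 fold change of -3.60 and an SE of 0.51 (limma, adjusted p = 0.00021). Recovered *NID1* reads totalled 714 in the 5 WT and 43 in the 5 *SOX2* KO embryos.

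*NID2* was at 136, 133, 110, 176 and 126 normalized reads in WT embryos. *SOX2* KO embryos held 269, 364, 253, 51.8 and 143, so that 3 were above the WT range, ko5 was within it and ko4 was below it. *NID2* was not called (0.41 on the log2 scale, SE 0.35, limma adjusted p = 0.426). The ratio of *NID2* to *NID1* was 0.441 to 4.05 in WT against 10.3 to 55.2 in *SOX2* KO embryos (exact permutation test, two-sided, p = 0.00794, adjusted p = 0.0159 over 4 ratios, n = 5 each). This p is the smallest the design can give. As *NID1* alone did not overlap and *NID2* was not called, the ratio restates the fall of *NID1* and is no separate support.

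*HSPG2*, the perlecan gene, whose product is a large heparan sulfate proteoglycan of basement membranes, rose. WT embryos held 52.7, 29.7, 140, 28.8 and 43.1 normalized reads, and *SOX2* KO embryos 169, 173, 179, 98.6 and 225. The groups overlapped through nc3, at 140, and ko4, at 98.6. The log2 fold change was 1.72 with an SE of 0.33 (limma, adjusted p = 0.00276).

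The collagen IV chains, the network collagen of basement membranes, gave no call among 6. *COL4A1* was at 267, 319, 210, 246 and 272 normalized reads in WT embryos and at 228, 222, 222, 314 and 248 in *SOX2* KO embryos, with fully mixed groups. Its log2 fold change was -0.09 with an SE of 0.16 (limma, adjusted p = 0.732). *COL4A2*, which lies beside *COL4A1* in the genome and whose product assembles with that of *COL4A1* in 1 molecule, was at 110, 166, 89.5, 103 and 95.6 in WT and at 77.9, 40.9, 103, 114 and 107 in *SOX2* KO embryos (-0.39, SE 0.25, limma adjusted p = 0.290). The ratio of *COL4A1* to *COL4A2* ran from 1.92 to 2.85 in WT and between 2.15 to 5.42 in *SOX2* KO embryos (exact permutation test, two-sided, p = 0.278). *COL4A5* was at 7.42 to 26.6 in WT and at 9.86 to 53.0 in *SOX2* KO embryos (1.13, SE 0.44, limma adjusted p = 0.087), and *COL4A3*, *COL4A4* and *COL4A6* had means under 10.

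**Figure D1:**
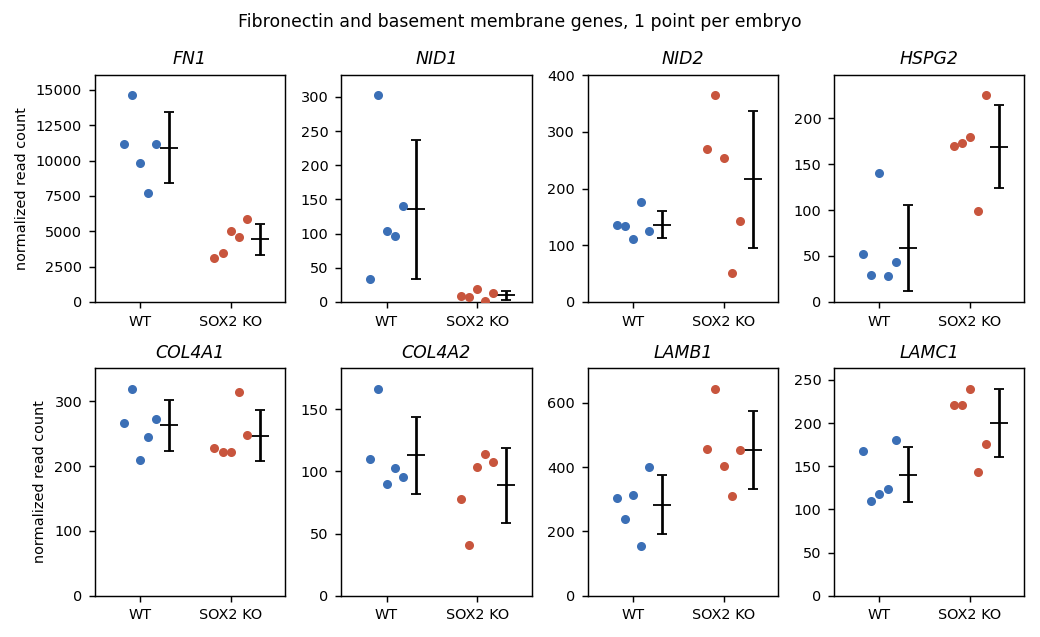
Normalized read counts of fibronectin and basement membrane genes, with 1 point per embryo (5 WT in blue, 5 *SOX2* KO in red) and the mean with its SD in black. *FN1* and *NID1* do not overlap between the groups, *HSPG2* overlaps through nc3 and ko4, and *COL4A1* and *COL4A2* are mixed.

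The laminin chains had higher mean log2 values in *SOX2* KO embryos for 11 of 11, beside 62.9% of all tested genes. Of the 11 chains 3 were called higher, beside 8.93% of all tested genes. These were *LAMA3*, *LAMB3* and *LAMC3*, at low levels, with means of 6.65, 2.28 and 1.46 normalized reads in WT and 24.8, 10.97 and 11.9 in *SOX2* KO embryos. *LAMA3* and *LAMB3* encode chains of the laminin that anchors stratified epithelia. Some WT embryos had no read of *LAMB3* or *LAMC3*, and at this depth 0 reads in an embryo allow up to 3.

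*LAMB1* and *LAMA5* had many reads and changed by less than 2-fold. In addition to the 29 that rose, *LAMB1*, *LAMA5* and the integrin chain *ITGA6* passed p alone, giving 32 of 84 at any fold beside 10.4% of all tested genes. *LAMB1*, the beta chain of most embryonic laminins, was at 305, 239, 314, 155 and 402 normalized reads in WT and at 457, 643, 402, 311 and 453 in *SOX2* KO embryos. Its log2 fold change of 0.71 (SE 0.22, limma adjusted p = 0.0399) passed the threshold on p but not that on the fold change. *LAMA5*, the most widespread alpha chain of basement membranes, was likewise past p alone, at 95.0 to 164 in WT against 123 to 250 in *SOX2* KO embryos (0.65, SE 0.20, limma adjusted p = 0.0386).

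*LAMC1*, the gamma chain that joins most of these trimers, was at 110 to 181 normalized reads in WT against 144 to 240 in *SOX2* KO embryos (0.52, SE 0.19, limma adjusted p = 0.0717). *LAMA1*, the alpha chain of the first embryonic basement membranes, varied most between WT embryos among the laminins with a WT mean of at least 50, at 58.8, 196, 94.5, 15.5 and 36.6. In *SOX2* KO embryos it kept to 98.8 to 152, a coefficient of variation of 16.5% against 88.4% in WT. It was not called (1.07, SE 0.42, limma adjusted p = 0.086). Summed over the 11 chains, laminin reads were 409 to 728 in WT against 754 to 1232 in *SOX2* KO embryos.

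Of the 11 fibrillar collagens 6 rose and none fell, where 8.93% of all tested genes rose and 1.16% fell. Those that rose were *COL1A1*, *COL1A2*, *COL5A1*, *COL5A2*, *COL5A3* and *COL11A2*. *COL1A2*, the alpha2 chain of collagen I, was at 61.8, 62.3, 73.6, 49.7 and 41.9 normalized reads in WT and at 192, 140, 112, 218 and 66.9 in *SOX2* KO embryos. Only ko5 lay within the WT range, and the log2 fold change was 1.23 with an SE of 0.27 (limma, adjusted p = 0.00655). *COL1A1*, the alpha1 chain of the same molecule, was at 5.34, 4.45, 20.9, 9.32 and 14.2 in WT and at 31.2, 26.4, 31.4, 27.9 and 36.9 in *SOX2* KO embryos, without overlap (1.61, SE 0.39, limma adjusted p = 0.0126).

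Collagen V chains start and limit collagen I fibrils, and all 3 of them rose. *COL5A3* was at 11.4, 8.90, 18.9, 16.3 and 4.72 normalized reads in WT and at 81.3, 55.5, 68.6, 22.2 and 38.1 in *SOX2* KO embryos. The log2 fold change was 2.05 with an SE of 0.39 (limma, adjusted p = 0.00302). *COL5A1* had 12 reads in all over the 5 WT embryos and 120 over the 5 *SOX2* KO embryos, with normalized values of 0 to 5.97 against 6.57 to 52.3. Its log2 fold change of 3.21 (SE 0.60, limma adjusted p = 0.00255) was the highest of the 84 genes. *COL5A2* was near the limit of detection, with 1 read in WT and 18 in *SOX2* KO embryos.

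The remaining fibrillar chains gave no call. *COL3A1*, abundant in connective tissue, had 6 reads over the WT and 15 over the *SOX2* KO embryos, and *COL2A1*, the cartilage collagen, 12 and 49 (limma, adjusted p = 0.197 and 0.0519). *COL24A1* was at 8.55 to 19.1 normalized reads in WT against 12.7 to 20.9 in *SOX2* KO embryos (0.39, SE 0.37, limma adjusted p = 0.471), and *COL27A1* at 11.4 to 46.7 and 18.9 to 47.7 (0.76, SE 0.37, limma adjusted p = 0.160).

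Among the 26 other collagens, whose median mean was 7.55, 14 rose and none fell. Over all tested genes 8.93% rose, and 14.1% of those with a mean under 10. All 26 had a higher mean log2 value in *SOX2* KO embryos (24 of 26 with quantile normalization). So did 62.9% of all tested genes and 83.7% of those with a mean under 10. Collagen VI forms beaded filaments around cells, and 4 of its chains rose. *COL6A1* was at 3.05, 0, 1.99, 2.33 and 1.77 normalized reads in WT and at 37.9, 3.96, 25.6, 7.39 and 17.3 in *SOX2* KO embryos, which did not overlap (2.56, SE 0.60, limma adjusted p = 0.0103). *COL6A2* was at 2.97 to 10.9 and 10.6 to 30.1, *COL6A3* at 0 to 2.97 and 4.11 to 34.5, and *COL6A5* at 0 to 3.98 and 2.64 to 15.6. *COL6A5* and *COL9A1* were not called by edgeR (adjusted p = 0.0571 and 0.0592).

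*COL12A1*, a fibril-associated collagen, had the most reads in this class, with 172, 43.0, 143, 61.4 and 165 normalized reads in WT and 239, 289, 295, 116 and 201 in *SOX2* KO embryos. Only ko4 was inside the WT range (1.08, SE 0.33, limma adjusted p = 0.0357). This call was lost with edgeR (0.85 on the log2 scale, adjusted p = 0.0620), and with DESeq2 the change was under 2-fold (0.95 on the log2 scale). *COL7A1*, the anchoring fibril collagen of skin, was at 8.55 to 51.7 and 31.7 to 85.7 (1.26, SE 0.39, limma adjusted p = 0.0388), and *COL22A1* at 2.36 to 31.8 and 22.2 to 55.3 (1.97, SE 0.47, limma adjusted p = 0.0112). *COL17A1*, a transmembrane collagen of hemidesmosomes, missed the threshold at 8.90 to 42.5 and 41.9 to 66.8 (1.02, SE 0.35, limma adjusted p = 0.0587).

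The 7 further collagens that rose, *COL8A2*, *COL9A1*, *COL9A3*, *COL15A1*, *COL16A1*, *COL19A1* and *COL20A1*, had means under 3 normalized reads in WT embryos. *COL8A2*, *COL19A1* and *COL20A1* had at most 3 reads in each WT embryo. Their reads totalled 1, 2 and 5 over the 5 WT embryos and 35, 30 and 70 over the 5 *SOX2* KO embryos.

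**Figure D2:**
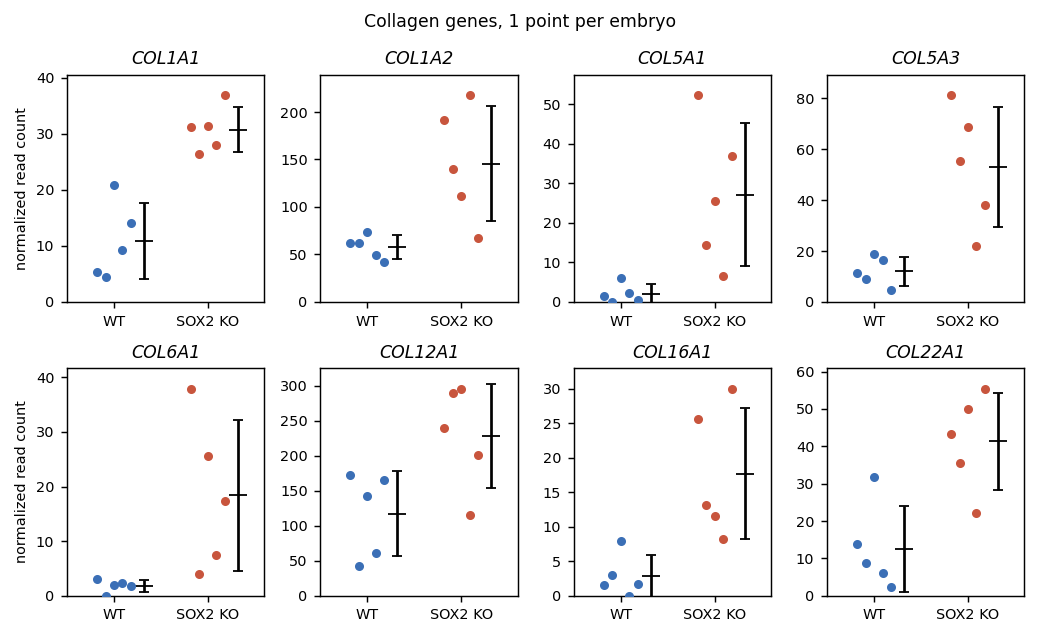
Normalized read counts of 8 collagen genes that were called higher, with 1 point per embryo (5 WT in blue, 5 *SOX2* KO in red) and the mean with its SD in black. *COL1A1*, *COL5A1*, *COL5A3*, *COL6A1* and *COL16A1* do not overlap between the groups, while *COL1A2* overlaps through ko5, and *COL12A1* and *COL22A1* through ko4.

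The integrin chains that pair to bind fibronectin were not called. *ITGA5*, the alpha chain of the main fibronectin receptor, was at 627, 604, 817, 567 and 510 normalized reads in WT and at 578, 710, 928, 777 and 959 in *SOX2* KO embryos (0.33, SE 0.17, limma adjusted p = 0.176). Its partner *ITGB1*, the beta chain shared by most matrix receptors, was at 507, 442, 383, 537 and 611 in WT and at 521, 601, 558, 397 and 586 in *SOX2* KO embryos (0.11, SE 0.16, limma adjusted p = 0.683). Both genes overlapped widely between the groups. *ITGAV*, another alpha chain that binds the RGD motif of fibronectin, was at 89.5 to 165 and 111 to 149 (0.15, SE 0.19, limma adjusted p = 0.601), and *ITGB5*, a partner of *ITGAV*, at 42.7 to 88.5 and 64.9 to 104 (0.52, SE 0.22, limma adjusted p = 0.116). None of the 4 RGD-binding alpha chains (*ITGA5*, *ITGA8*, *ITGAV* and *ITGA2B*) was called.

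The ratio of *FN1* to *ITGA5* was 12.03 to 24.2 in WT against 4.91 to 6.10 in *SOX2* KO embryos (exact permutation test, two-sided, p = 0.00794, adjusted p = 0.0159 over 4 ratios, n = 5 each). As *FN1* alone did not overlap and *ITGA5* was not called, this ratio restates the fall of *FN1* and is no separate support. The ratio of *ITGA5* to *ITGB1* was 0.835 to 2.14 in WT against 1.11 to 1.96 in *SOX2* KO embryos (exact permutation test, two-sided, p = 0.413).

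Of the 3 alpha chains that bind laminin (*ITGA3*, *ITGA6* and *ITGA7*), *ITGA3* rose and *ITGA6* passed the threshold on p alone. *ITGA6* was at 73.3, 62.3, 69.6, 52.8 and 72.0 normalized reads in WT and at 151, 87.2, 114, 141 and 129 in *SOX2* KO embryos. The groups were fully apart, with a log2 fold change of 0.89 and an SE of 0.20 (limma, adjusted p = 0.00714). *ITGA3* was at 88.5, 25.2, 39.8, 94.0 and 64.9 in WT and at 146, 153, 160, 55.0 and 217 in *SOX2* KO embryos, with ko4 inside the WT range (1.24, SE 0.34, limma adjusted p = 0.0234). *ITGB4*, the beta chain that pairs with *ITGA6* in hemidesmosomes, was at 7.63, 5.93, 7.95, 4.66 and 1.77 in WT and at 31.2, 14.5, 30.2, 12.3 and 46.1 in *SOX2* KO embryos. It rose without overlap (2.04, SE 0.46, limma adjusted p = 0.00863) and was the 1 beta chain of 8 that was called, where 8.93% of all tested genes rose.

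Of the 4 collagen-binding alpha chains, *ITGA11* rose, with 8 reads over the WT and 41 over the *SOX2* KO embryos, and *ITGA1*, *ITGA2* and *ITGA10* did not pass. Among the 7 chains of leukocyte integrins *ITGAM* and *ITGAD* rose, with 1 and 11 reads over the WT and 41 each over the *SOX2* KO embryos. Both had means under 10, a level at which 14.1% of all genes rose. They were called in 2 and 4 of the 10 fits that leave out 1 embryo. *ITGB2*, also of these 7 chains, was not called (1.46, SE 0.62, limma adjusted p = 0.112). *ITGAL*, of the same group, went the other way without passing, at 17.9 to 68.4 normalized reads in WT against 1.64 to 46.1 in *SOX2* KO embryos (-0.94, SE 0.60, limma adjusted p = 0.282). *ITGAE* was at 28.2 to 57.8 and 30.2 to 66.9 (0.13, SE 0.27, limma adjusted p = 0.771).

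**Figure D3:**
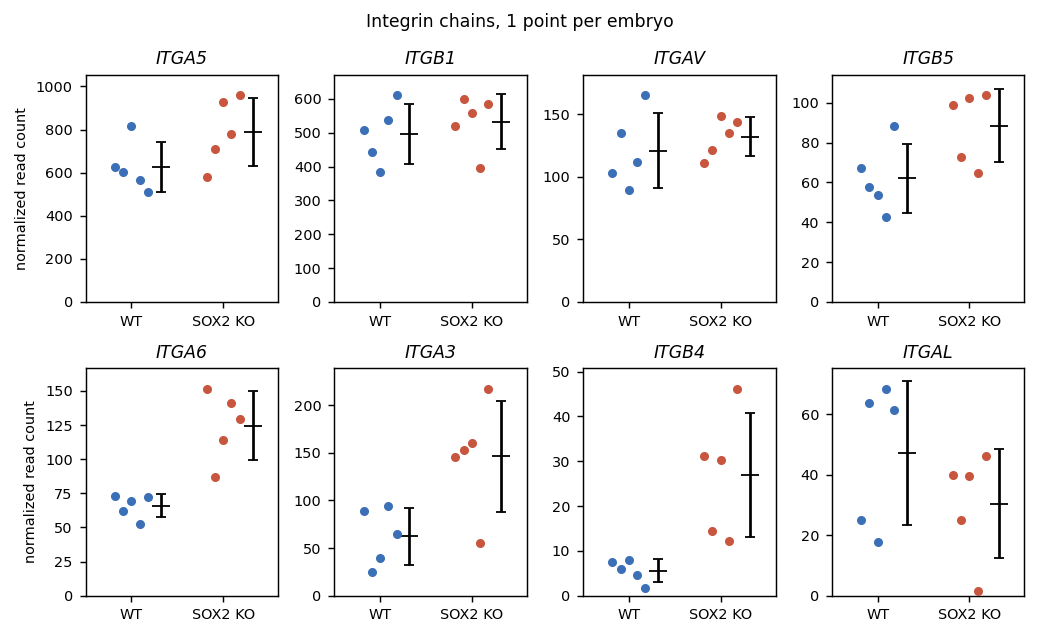
Normalized read counts of 8 integrin chains, with 1 point per embryo (5 WT in blue, 5 *SOX2* KO in red) and the mean with its SD in black. *ITGA6* and *ITGB4* do not overlap between the groups, *ITGA3* overlaps through ko4, and the chains of the fibronectin receptor, *ITGA5* and *ITGB1*, are mixed.

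**Figure D4:**
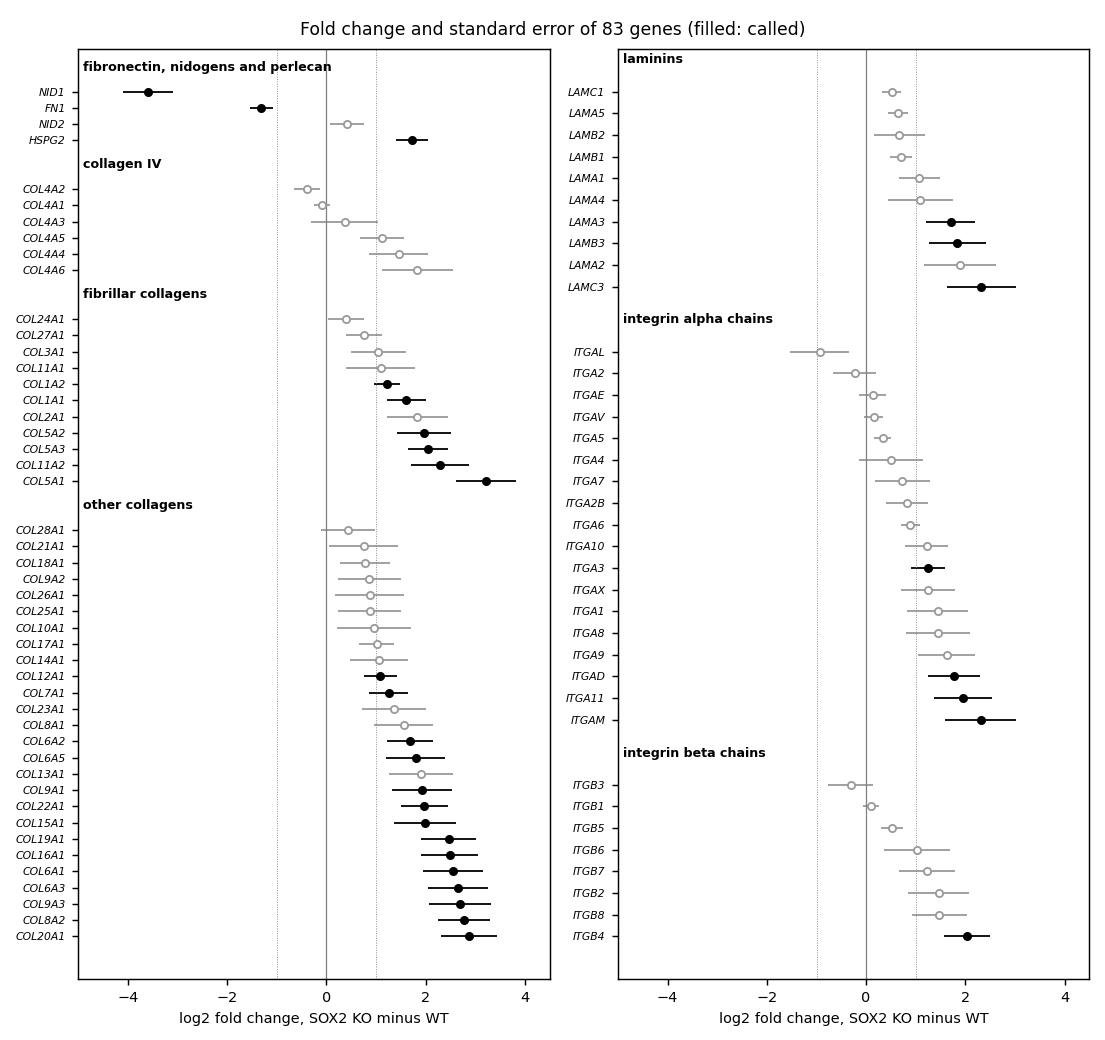
Log2 fold change of 83 of the 84 genes, *SOX2* KO minus WT, with the standard error as a bar, grouped by class. Filled points are called genes, dotted lines mark a 2-fold change, and 77 of the 84 genes had a higher mean log2 value in *SOX2* KO embryos (72 with quantile normalization), beside 62.9% of all tested genes.

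Rises over all tested genes were most frequent among genes with few reads, so the members were also counted by level. Of the 41 members with a mean under 10, 15 rose (36.6%), beside 14.1% of all genes at that level. Of the 28 members with a mean of 10 to under 100, 10 rose (35.7%), beside 6.76%, and of the 15 with a mean of at least 100, 4 rose (26.7%), beside 2.29%. All 41 low members had a higher mean log2 value in *SOX2* KO embryos, as did 83.7% of all genes at that level. Median log2 fold changes of the members were 1.63, 0.95 and 0.52 from the lowest to the highest level, beside 0.93, 0.04 and -0.11 over all genes. Members that did not overlap numbered 15 of 84 in the higher direction (17.9%), beside 6.41% of all tested genes.

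The low members differed between embryos within each group. Their mean log2(normalized read count + 1) was 1.18, 1.05, 1.81, 0.70 and 1.21 in nc1 to nc5 and 3.94, 2.15, 2.71, 1.73 and 3.45 in ko1 to ko5. The groups overlapped, since nc3 was above ko4. Over all genes with a mean under 10 the same measure was 1.15, 1.12, 1.59, 1.02 and 1.32 in WT and 2.82, 1.70, 2.05, 1.44 and 2.51 in *SOX2* KO embryos, in which ko1 and ko5 were again highest and ko4 lowest.

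Single embryos led or trailed for many members. The highest WT value belonged to nc3 for 34 of the 84 genes, and nc3 had the highest share of *RN18S1* reads and the most genes with a read among WT embryos. Among *SOX2* KO embryos, ko1 was highest for 44 genes and ko5 for 24, and these had the most genes with a read, 19813 and 19561. The lowest *SOX2* KO value belonged to ko4 for 49 genes, with the lowest *RN18S1* share of that group, 32.5%. Neither measure followed the members in every embryo. The fewest genes with a read in that group were in ko2, 17987 against 18125 in ko4. The *RN18S1* share of ko1, 36.8%, was below those of ko3 and ko5, 39.6% and 45.0%. Members with at least 1 read numbered 60 to 79 in WT against 77 to 84 in *SOX2* KO embryos.

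**Figure D5:**
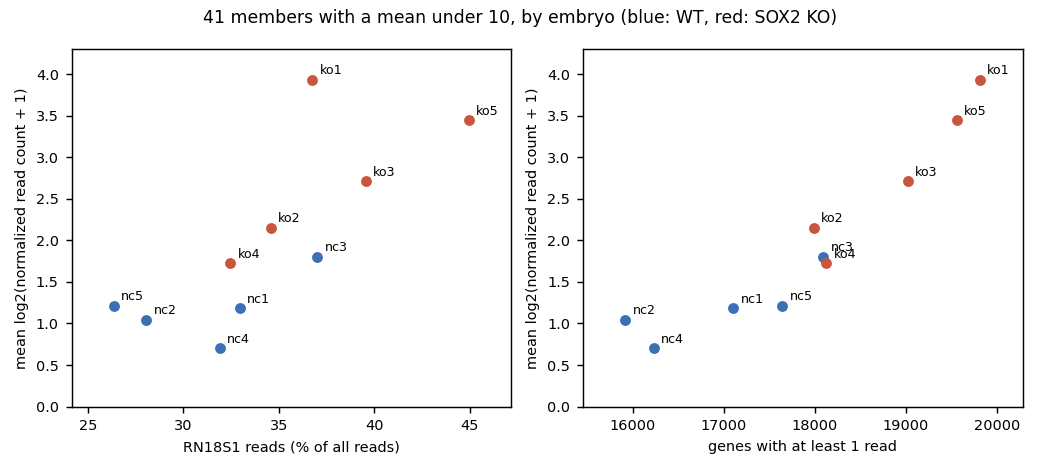
Mean log2(normalized read count + 1) of the 41 members with a mean under 10 in each embryo (WT in blue, *SOX2* KO in red), against the share of *RN18S1* reads in percent (left) and the number of genes with at least 1 read (right). The values of nc3 (1.81) and ko4 (1.73) cross between the groups, and ko1 and ko5 are highest on the vertical axis and have the most genes with a read.

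Taking the *RN18S1* share of each embryo as a covariate left 1 member higher, *COL1A2* (limma, adjusted p = 0.0202), and *FN1* and *NID1* lower (limma, adjusted p = 0.0173 and 0.00386), while *HSPG2* was no longer called (limma, adjusted p = 0.171). Over all genes 137 rose and 83 fell in that fit. The *RN18S1* share and the group move together in these embryos, and their parts in the rises cannot be told apart. The count of members that rose was 14 without ko1, 15 without ko5, 18 without nc4 and 19 without ko3, and 41 without ko4. In all 10 fits that leave out 1 embryo, 14 of the 29 rises remained. These were *COL1A1*, *COL1A2*, *COL5A1*, *COL5A3*, *COL6A1*, *COL6A3*, *COL8A2*, *COL9A3*, *COL16A1*, *COL19A1*, *COL20A1*, *COL22A1*, *HSPG2* and *ITGB4*. *FN1* and *NID1* remained in each of the 10 fits.

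Genes that mark cell lineages moved beside these changes, and their part in them was not tested. Of 10 primitive endoderm markers 4 fell, with *PDGFRA*, *HNF4A* and *APOE* among them, and *APOA1* rose. *PDGFRA* was at 156 to 369 normalized reads in WT against 18.5 to 84.9 in *SOX2* KO embryos, and *HNF4A* at 54.9 to 144 and 4.93 to 21.2, both without overlap, as for *NID1* and *FN1*. Their summed level, led by *CTSV* and *GATA6*, was 2779 to 5092 in WT against 2870 to 5033 in *SOX2* KO embryos. Of 11 epiblast markers *NANOG*, *KLF17*, *PRDM14* and *ZFP42* fell (summed level 2230 to 2613 against 1244 to 1725). *POU5F1* and *SALL4* passed p alone (limma, adjusted p = 0.00631 and 0.0257), both lower without overlap. *POU5F1* was at 998 to 1481 in WT against 533 to 823 in *SOX2* KO embryos (-0.75, SE 0.16). In all, 10 of the 11 had a lower mean log2 value and 1 a higher one. Of 14 trophectoderm markers *ELF3* and *DLX3* rose. The summed level, led by *KRT8* and *KRT18*, was 26679 to 38842 in WT against 36856 to 50548 in *SOX2* KO embryos, and *KRT8* was not called. *KRT18* and *CLDN4* passed p alone, both higher without overlap (limma, adjusted p = 0.0394 and 0.00633). *TFAP2C* passed p alone in the lower direction (limma, adjusted p = 0.0352). Of the 14 markers, 12 had a higher mean log2 value and 2 a lower one. Over all tested genes 1.16% fell and 8.93% rose.

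Cell types that make fibrillar collagens or carry leukocyte integrins were also looked at. Of 6 fibroblast markers *PDGFRB* and *DCN* rose, with a summed level of 6.99 to 27.8 in WT against 10.7 to 64.6 in *SOX2* KO embryos. Of 9 leukocyte markers *PTPRC*, *LCP1* and *CORO1A* rose (26.4 to 47.7 against 37.0 to 101), while of 10 cumulus and granulosa cell markers none was called (47.5 to 156 against 91.2 to 478). None of the tested markers was at 0 in all WT embryos, and the other listed markers were not analysed here. All 5 markers that rose had means under 10, a level at which 14.1% of all genes rose. *PTPRC*, *LCP1* and *CORO1A* were called in 4, 3 and 3 of the 10 fits that leave out 1 embryo, *PDGFRB* and *DCN* in 4 and 2. With the *RN18S1* share as a covariate none of the 5 was called (limma, adjusted p of 0.320 to 0.585). What these low levels contribute to the collagen and integrin reads was not tested.

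Other genes of the same pathway were taken as 4 lists, in which 10.7%, 15%, 20% and 15.6% of the genes rose in the order below, beside 8.93% of all tested genes. The first of these shares is near that of all genes. The second list had a median mean of 7.28, and its share is near the 14.1% of all genes with a mean under 10 that rose. Of 28 genes for collagen processing *LOXL3*, *LOXL4* and *ADAMTS2* rose and *PCOLCE* fell. *PCOLCE*, which enhances the trimming of procollagen, was at 81.5 to 101 normalized reads in WT against 18.9 to 42.3 in *SOX2* KO embryos (-1.51, SE 0.23, limma adjusted p = 0.00051), opposite in sign to the collagen I chains. *LOXL4*, a lysyl oxidase that cross-links collagen, was at 5.93 to 23.6 and 28.8 to 68.6 (1.67, SE 0.35, limma adjusted p = 0.00552).

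Of 40 other matrix genes 6 rose and 3 fell. *SPARC*, a collagen-binding protein of basement membranes, was at 1063, 973, 924, 644 and 1047 normalized reads in WT and at 444, 219, 174, 357 and 468 in *SOX2* KO embryos, without overlap (-1.56, SE 0.23, limma adjusted p = 0.000343). *SPOCK1*, a proteoglycan, and *SPP1*, osteopontin, also fell (-1.56 and -1.81, limma adjusted p = 0.0353 and 0.0294). *SPP1* overlapped between the groups, at 17.6, 8.90, 13.9, 19.4 and 93.3 in WT against 3.29 to 10.6 in *SOX2* KO embryos. *SPARC* was called in all 10 fits that leave out 1 embryo, but *SPOCK1* and *SPP1* only in 5 and 4. With the *RN18S1* share as a covariate neither *SPOCK1* nor *SPP1* was called (limma, adjusted p = 0.182 and 0.349). Those that rose were *DCN*, *ELN*, *TNXB*, *FRAS1*, *FREM2* and *PXDN*, of which *PXDN*, the peroxidase that cross-links collagen IV, had the most reads, at 16.3 to 43.7 and 56.8 to 89.9 (1.55, SE 0.28, limma adjusted p = 0.00168). *DCN*, *ELN* and *FREM2* had means under 10.

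Of 15 other matrix receptors *SDC1*, *CD44* and *DDR2* rose. *CD44* and *DDR2* had means under 10, a level at which 14.1% of all genes rose. *SDC1*, a heparan sulfate proteoglycan of epithelial cells, was at 29.0 to 41.8 normalized reads in WT against 51.2 to 112 in *SOX2* KO embryos (1.02, SE 0.24, limma adjusted p = 0.0108). Of 32 genes of the adhesion plaque, which ties integrins to actin, *FERMT1*, *BCAR1*, *ZYX*, *TNS2* and *PLEC* rose and none fell. *ZYX*, zyxin, was at 649, 392, 960, 683 and 491 in WT and at 1246, 1388, 1337, 1774 and 1984 in *SOX2* KO embryos, without overlap (1.33, SE 0.21, limma adjusted p = 0.000485). The median log2 fold changes of the 4 lists were 0.39, 0.81, 0.50 and 0.44, beside 0.25 over all tested genes.

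Some of these values rest on reads that neighbouring genes could share. The strand setting of the count is not given in the sources used here. Of the 84 genes 83 matched a symbol of the RefSeq gene table for the assembly ARS-UCD2.0, and 38 of them overlap another gene there. *HSPG2* overlaps *LDLRAD2*, which stood at a mean of 0.827 normalized reads in WT and 3.93 in *SOX2* KO embryos. *COL9A3* overlaps *TCFL5*, at 29.0 and 19.9, which differed in the other direction. *NID1*, *COL4A1*, *COL4A2*, *COL5A1*, *COL6A1* and *ITGB1* overlap no other gene in that table.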

How the data were processed

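Smart-seq2 libraries, primed on poly(A) tails and amplified without molecular identifiers, were made from 10 single embryos. According to the methods and the labels, the authors used Trimmomatic for trimming, Hisat2 for mapping to ARS-UCD1.2 and featureCounts for counting per gene. The table the authors deposited holds a normalized signal, in which read counts were scaled per embryo by DESeq2 size factors. The strand setting and the handling of multi-mapping reads are not given in the sources used here, so reads of paralogs may be shared. All 201120 values (100%) came out as whole multiples of a step specific to each embryo, within 0.0001, so reads were recovered from them (2223670 to 5134855 per embryo). None of 45 pairs of embryos had identical reads. Counting intervals and floors cover counting error only.

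The main test was limma (version 3.58.1, fitting a trend), which compared log2(normalized read count + 1) between groups for 20056 genes with a mean of at least 1, with Benjamini-Hochberg adjustment over all of them. Alternatives were DESeq2 1.42.0 and edgeR 4.0.16 (quasi-likelihood) on recovered reads, in R 4.3.3, beside pseudocounts of 0.1 and 5, no filter or a mean of at least 10, equal totals, quantile normalization, no fold threshold, the *RN18S1* share as a covariate, and leaving out each embryo. Ratios were compared by exact permutation in Python 3.11.15 with scipy 1.17.1. The limma, DESeq2 and edgeR tests were checked on simulated counts. The changed genes of that simulation had a mean of at least 10, so it did not check changes of genes with lower means. Columns ko1 to ko5 were matched to their group by name, as the labels number these samples otherwise. Members, gene lists and markers were chosen with earlier results of these data known. Genes named by rule were every called member, the 3 members with the highest mean in each class, central basement membrane and receptor genes, the markers, *SOX2* and *RN18S1*, and up to 5 called genes per related list whose mean was 10 or more. The others were named after their values were seen. No sequences or coordinates are given, since the gene table describes ARS-UCD2.0. Some results are not reported here by gene.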

Additional observations from a re-analysis of the deposited data

Results flagged for a closer look

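Among 92 groups of 5 embryos examined, 1 embryo stood apart from the other 4 in 13, by Dixon's test at the 95% level. About 4.6 would be flagged by chance if the groups were independent and normally distributed. The groups share embryos and many hold few reads, so the number flagged cannot be read against 4.6. In WT, nc3 was high for *COL11A2* (9.94 normalized reads, others 0 to 2.36), *COL27A1* (46.7, others 11.4 to 20.7), *COL6A2* (10.9, others 2.97 to 4.72), *HSPG2* (140, others 28.8 to 52.7) and *LAMC3* (5.97, others 0 to 0.763). In *SOX2* KO, ko1 was high for *COL11A2* (27.8, others 9.04 to 13.8) and *COL17A1* (66.8, others 41.9 to 47.6), and ko4 for *COL4A1* (314, others 222 to 248). *COL4A2* was high in nc2 (166, others 89.5 to 110). In 4 WT groups the others were at 0, and the value stands for 1 or 2 reads: *COL5A2* and *COL8A2* in nc3 (0.994 each), *COL19A1* in nc1 (1.53) and *ITGAM* in nc4 (0.777).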

How the results depend on the processing

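*FN1* and *NID1* stayed lower in all 21 alternatives, with log2 fold changes of -1.51 to -1.19 and -4.01 to -3.06. The 29 members called higher became 14 to 41 and the 2 lower stayed 2 when 1 embryo was left out, and all genes called went from 2024 to 930 to 3316. With the *RN18S1* share as covariate 1 member was higher and 220 genes were called, with a minimum mean of 10 there were 12 of 43 members and 692 genes, and with quantile normalization 17 members and 1115 genes. A pseudocount of 5 gave 25 members and 1185 genes. DESeq2 called 32 members higher, 28 of them shared, and edgeR 28, 26 of them shared. Equal totals, with *RN18S1* or without it (the latter added after seeing the data), gave 26 and 27. Of the calls over all genes, 88.5% were higher, against 57.4% with quantile normalization, 62.3% with the covariate and 72.5% with a mean of at least 10. The median of all genes was 0.25 on the log2 scale, and -0.03 with quantile normalization, 0.14 with equal totals and 0.15 with the covariate. The median of the members was 1.22, and 0.76, 1.11 and 0.87 in these. *COL4A1* changed sign with the covariate (0.085) and *ITGB1* with equal totals (-0.0173), neither past the threshold. The cause was not tested where a count moved, except that a higher minimum leaves fewer members to test. No paired analysis was possible because column names of *SOX2* KO embryos carry no replicate number of the labels. Genes with at most 3 reads in an embryo lie at the floor of this depth.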
